A study of Mus musculus with 8 samples.

Results

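The regions described here are stretches of the mouse genome that carried a called H3R17me2a peak of moderate height in every ChIP library of the series. They were chosen by the deposited fold enrichment of the peaks: peaks of the 4 lists were merged where they overlapped by 1 bp or more, and a merged region was kept if all 4 lists had a peak in it, no peak of it reached 12-fold and none was under 3.5-fold. There were 28843 merged regions in all: 602 (2.09%) had a peak in each of the 4 lists, and 520 (1.8%) met the rule. Among the remainder of the 602, 71 had a fold of 12 or more and 11 had a fold under 3.5. A further 1074 regions were called in 3 lists, 3068 in 2 and 24099 in 1. Since they chose the regions, the fold values are given below as a description and are not tested.

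All mice were Carm1fl/fl and were given an adeno-associated virus of serotype 9 on postnatal day 1. In the knockout group (2 ChIP libraries) the virus was AAV-CRE, which deletes the floxed Carm1 alleles in the cells it infects, and in the control group (2 ChIP libraries) it was AAV-GFP, so that the controls, called WT in the sample titles, carry the same floxed alleles. The hearts were mosaic, and nuclei were sorted on the cardiomyocyte marker PCM1, with no sort on the virus named in the labels, so that nuclei which kept Carm1 can be among those labelled knockout. The age at harvest is not given in the labels beyond neonatal, nor is it said whether libraries came from separate animals, so any p-value measures only the spread between these libraries. The lists held 12990 and 8742 peaks in control 1 and 2, and 4980 and 9531 in knockout 1 and 2.

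H3R17me2a is the asymmetric dimethylation of arginine 17 in the tail of histone H3. Carm1, also called PRMT4, is the methyltransferase best known for placing it, as a coactivator that nuclear receptors and other transcription factors bring to enhancers and promoters. In cardiac muscle the genes most often followed in such work are those of the contractile apparatus, calcium handling and mitochondrial metabolism. None of the 520 regions overlapped Carm1 or lay within 5 kb of it, and a peak list holds no measure of how much Carm1 was lost.

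Sequence was at hand only for windows around gene starts, and few of the regions reached one. Of 32851 windows of 300 bases around RefSeq gene starts (250 bases before to 50 after, build GRCm38.p6), 88 (0.268%) overlapped any merged region and 4 (0.0122%) overlapped one of the 520. All 4 belong to predicted RNA genes of unknown function, and each is printed because it holds a stretch that occurs again further along the same window. They are Gm36816 at chr6:67008938-67009237 on the minus strand, Gm30645 at chr7:10471267-10471566 on the minus strand, Gm46074 at chr8:20649078-20649377 on the plus strand and Gm5636 at chrX:47436492-47436791 on the minus strand. Each is written 5′ to 3′ on the gene's strand as RefSeq gives it, and capitals mark both copies of the longest exact stretch that recurs 50 or more bases on.
Gm36816: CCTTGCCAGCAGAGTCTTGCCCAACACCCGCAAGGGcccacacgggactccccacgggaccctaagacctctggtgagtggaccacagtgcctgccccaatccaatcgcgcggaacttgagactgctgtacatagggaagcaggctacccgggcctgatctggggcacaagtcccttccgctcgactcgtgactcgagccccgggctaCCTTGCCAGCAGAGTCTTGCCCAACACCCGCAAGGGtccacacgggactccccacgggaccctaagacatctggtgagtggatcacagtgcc
Gm30645: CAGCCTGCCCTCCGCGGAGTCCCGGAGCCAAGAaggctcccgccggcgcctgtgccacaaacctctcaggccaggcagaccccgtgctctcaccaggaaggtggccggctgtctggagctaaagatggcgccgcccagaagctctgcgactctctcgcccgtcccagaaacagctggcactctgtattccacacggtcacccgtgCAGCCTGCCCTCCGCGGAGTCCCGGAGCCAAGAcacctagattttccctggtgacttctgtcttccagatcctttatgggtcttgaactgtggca
Gm46074: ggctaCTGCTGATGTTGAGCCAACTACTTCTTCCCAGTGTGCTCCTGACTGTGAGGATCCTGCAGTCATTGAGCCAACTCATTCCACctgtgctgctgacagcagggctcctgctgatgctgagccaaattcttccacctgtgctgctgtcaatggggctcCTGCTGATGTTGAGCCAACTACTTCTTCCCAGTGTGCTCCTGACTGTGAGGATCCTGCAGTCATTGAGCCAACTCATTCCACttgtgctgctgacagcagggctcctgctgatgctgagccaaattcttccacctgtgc
Gm5636: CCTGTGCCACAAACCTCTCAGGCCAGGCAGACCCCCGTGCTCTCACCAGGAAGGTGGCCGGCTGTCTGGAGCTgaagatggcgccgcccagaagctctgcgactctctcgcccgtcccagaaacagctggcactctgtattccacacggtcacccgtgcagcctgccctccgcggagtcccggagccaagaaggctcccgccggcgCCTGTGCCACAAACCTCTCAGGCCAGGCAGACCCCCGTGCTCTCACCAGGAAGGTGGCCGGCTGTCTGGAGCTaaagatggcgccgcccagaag

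The repeated stretch was 36 bases long in Gm36816 and recurred 208 bases on. It was 33 bases at an offset of 205 in Gm30645, 82 bases at 156 in Gm46074 and 73 bases at 206 in Gm5636. Over all 32851 windows, 140 (0.426%) held an exact stretch of 25 or more bases that recurred 50 or more bases on. Among windows in regions of 2 or more lists, the 4 included, it was 12 of 24, among windows in regions of 1 list 6 of 64, and among windows in no region 122 of 32763. This search was chosen after the sequences had been seen, so the 4 windows are no test of it. The 24 also include the identical windows of Gm40369, Gm40367, Gm36327 and Gm40364, described below, so they are not separate observations. Windows with such a recurring stretch are rare in the annotation, and 4 windows are too few to describe the regions that overlap none.

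The windows of Gm30645 on chromosome 7 and Gm5636 on chromosome X shared 195 of their 15-base words on the same strand, of 267 and 221 distinct words. Their GC content was 63.0% and 66.3%, with 18 and 19 CpG dinucleotides, against medians of 52.7% and 7 over all windows. Gm36816 had a GC content of 63.0% and 15 CpGs, whereas Gm46074 had 54.0% and none. The window of Gm36816 shared 158 of its 247 words, on the opposite strand, with that of A230004M16Rik on chromosome 11, which lay in a region of 2 lists. It shared 132 with that of Slc24a3, a sodium-calcium-potassium exchanger gene, which lay in no region of any list. Thus a shared sequence was found both inside and outside called regions.

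At Gm5636 the fold was 10.9 and 7.19 in controls 1 and 2, and 6.93 and 5.27 in knockouts 1 and 2, and the summits lay -93, 82, 47 and -279 bp from the middle of the window. Thus 3 of the 4 summits fell inside the window. At Gm30645 the fold was 6.76, 7.40, 5.84 and 6.17 in the same order, and the summits lay 355 to 641 bp away, since the region only reached the edge of the window. At Gm36816 the fold was 6.21, 6.40, 5.13 and 5.65, with all 4 summits 843 bp or more from the middle. At Gm46074 it was 10.3, 6.81, 8.05 and 8.33, with all 4 summits 775 bp or more away.

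The regions rested on few fragments per library. The number of fragments at the summit and the local background, the fragments expected there, were recovered from the deposited fold and p-value for 97.7% to 98.3% of the peaks of these regions. In 10 regions some peak was not recovered. Among them was the widest region, on chromosome 9, where −log10 q was 2231 to 2416. The fragment and background numbers thus leave out some peaks of very high significance. The median summit held 10 and 9 fragments in controls 1 and 2, and 10 and 9 in knockouts 1 and 2, over a median local background of 0.517, 0.610, 0.801 and 0.473 fragments. In 129 regions no list had more than 10 fragments, and in 44 every list had 20 or more. The background was under 1 fragment in all 4 lists in 366 regions (70.4%) and reached 5 or more in some list in 32. Most regions were thus low peaks over nearly empty background, and a small number, such as the region beside Wls with 383, 383 and 391 fragments in the 3 lists where they could be recovered, were tall peaks over a high background with a similar fold. The number of regions depended on the calls: 127 met the rule with peaks of −log10 q of 5 or more, and 871 when knockout 1, the shortest list, was left out.

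Peaks of the 520 regions made up 4.42% and 6.54% of the lists of control 1 and control 2, and 11.3% and 5.96% of those of knockout 1 and knockout 2. The share was highest in knockout 1, the shortest list. The median fold in the regions was 6.61, 6.12, 5.84 and 6.58 in the 4 lists in that order, and the highest was 11.9, 11.6 and 11.7 in the first 3 lists and just under the limit of 12 in knockout 2. The median −log10 q of their peaks was 6.62, 5.54, 5.11 and 6.32, against 4.52, 3.82, 3.93 and 4.53 over each whole list. In rank, their median peak stood at percentile 80.6, 78.2, 73.7 and 79.7 of its own list. Fold and q of different lists depend on the depth of each library, so they were not compared between groups.

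In each of the 4 lists the peaks of these regions had a larger median width than the rest. Their median width was 537.5 and 457.5 bp in the controls and 442 and 517.5 bp in the knockouts, whereas peaks outside the regions had medians of 293, 288, 292 and 295 bp. A wide peak overlaps others more readily, and whether any of this difference comes from the rule was not tested. The merged regions had a median width of 979.5 bp (lower and upper quartile 727.5 and 1281.75, range 227 to 11335), against 706 bp for regions of 3 lists, 482 bp for 2 lists and 276 bp for 1 list. Regions of 4 lists with a fold of 12 or more had a median of 519 bp and were narrower although they also had a peak in all 4 lists.

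**Figure D1:**
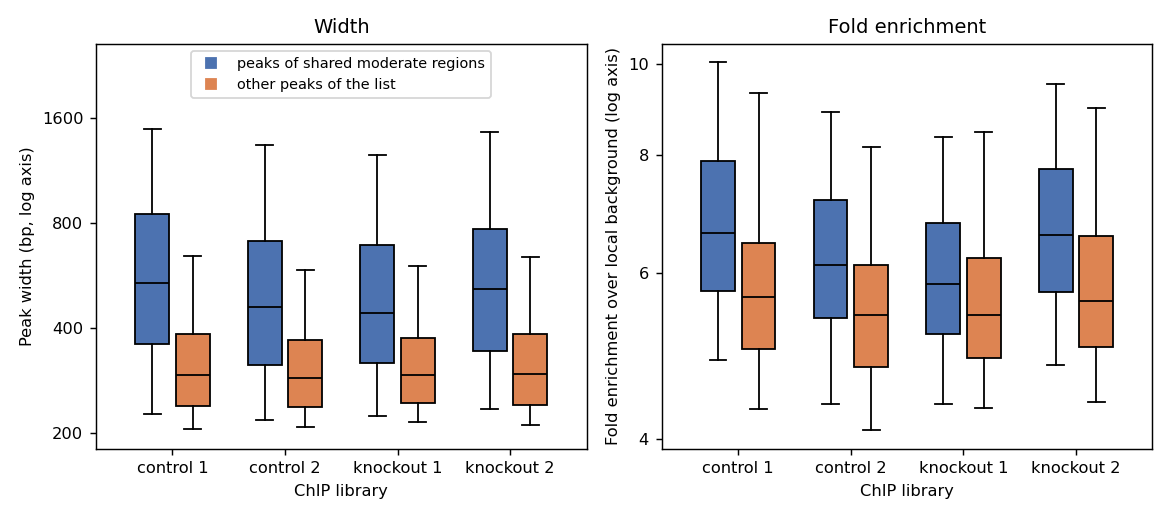
Width in bp (left, log axis) and fold enrichment over local background (right, log axis) of the peaks inside the shared moderate regions (blue) and of all other peaks of the same list (orange), for the 4 ChIP libraries; boxes show quartiles and the median, and whiskers the 5th and 95th percentiles. Median widths inside the regions lie between 442 and 537.5 bp and outside them between 288 and 295 bp; the fold was limited by the rule to 3.5 to under 12 inside the regions.

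Control and knockout did not differ in width beyond the spread of the libraries. The mean log2 width of the peaks in the regions was 9.14 and 8.95 in the controls (9.04 ± 0.13, SD, n = 2) and 8.93 and 9.08 in the knockouts (9.01 ± 0.11, SD, n = 2). The values of the groups overlapped, with knockout 2 between the controls and knockout 1 just under control 2. The difference, knockout minus control, was -0.038 on the log2 scale (exact two-sided permutation test over the 4 libraries, p = 0.667). With 2 libraries against 2 the smallest p this test can give is 0.33, so it could not have called any difference. Without control 1, the widest library, the difference was 0.066, and without knockout 1, the narrowest, it was 0.026, so its sign rested on single libraries.

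Within most regions the summits of the 4 libraries did not coincide. Where a list had several peaks in a region, its highest peak gave the summit. More than 4 peaks were found in 121 of the 520 regions, so a distance can be between separate peaks of a merged region. The distance from the lowest to the highest summit of a region over the 4 lists had a median of 415.5 bp (quartiles 257 and 661, range 0 to 4225). It was 50 bp or less in 36 of the 520 regions (6.92%). In the 71 regions of 4 lists with a fold of 12 or more it was 50 bp or less in 42 (59.2%), with a median of 23 bp, and in regions of 3 lists in 7.17%, with a median of 259.5 bp over 3 summits. The summits of the strongest shared regions thus stood closer together. With about 10 fragments per summit in the moderate regions, how much of the distance is counting scatter, or lies between separate peaks, was not tested.

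No difference was found between summit distances within and between groups. The median distance in the same region was 199 bp between the 2 controls and 187 bp between the 2 knockouts. Across groups it was 190 bp (control 1 and knockout 1), 182 bp (control 1 and knockout 2), 200.5 bp (control 2 and knockout 1) and 201 bp (control 2 and knockout 2). The mean within groups minus the mean between groups was -0.375 bp (exact permutation test over the 3 ways to pair the libraries, p = 1, smallest possible p 0.33). Between 56.2% and 61% of the distances were over 150 bp, about the length of DNA wrapped around 1 nucleosome, and 18.8% to 24.6% were within 50 bp.

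**Figure D2:**
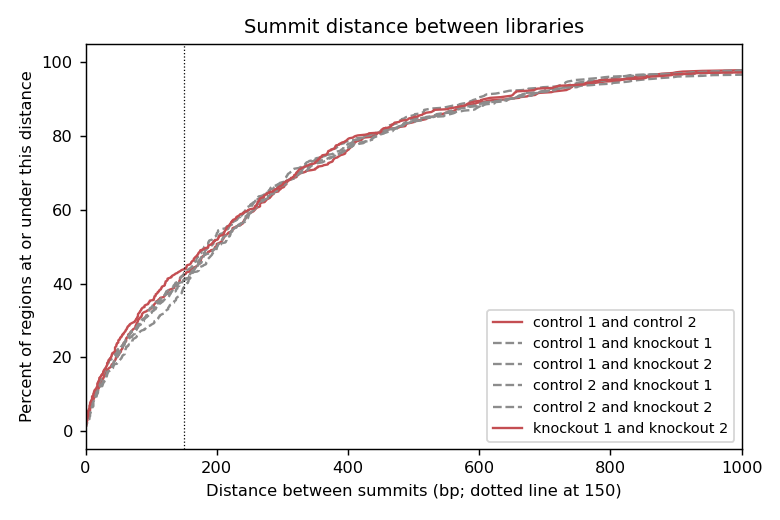
Cumulative percent of the 520 regions (vertical axis) by the distance in bp between the summits of a pair of libraries (horizontal axis), with pairs of the same group as solid red lines and pairs of different groups as dashed grey lines. The 6 lines run together, with medians of 182 to 201 bp; the dotted line marks 150 bp.

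Most of the regions lay outside genes. The middle of 128 of 520 (24.6%, 95% exact binomial interval 21.0 to 28.6%) was inside a protein-coding gene, against 29.9% of all merged regions, 27.9% of those of 3 lists, 28.2% of 2 lists and 30.3% of 1 list. The interval contains the shares of 3 and of 2 lists and leaves out those of 1 list and of all merged regions. It counts regions as if they were independent, so it decides nothing about these differences. Of the 71 regions of 4 lists with a fold of 12 or more 32.4% were in such a gene, and of the 11 with a fold under 3.5, 36.4%. With all annotated genes the share was 154 of 520 (29.6%), against 37.9%. Regions are not independent samples and share their libraries, so these shares are a description and were not tested. The middle of 5 regions (0.962%) lay within 1 kb of an end of a protein-coding gene, against 1.46% of all merged regions. Few were promoters or gene ends, and the median distance to the nearest protein-coding gene, with 0 for those inside, was 51.3 kb against 26.7 kb over all merged regions and 31.9 kb in regions of 3 lists.

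Outside genes, the median distance to the nearest protein-coding gene was 106 kb, against 81.7 kb over all merged regions. The nearest protein-coding gene was more than 500 kb away for 47 regions (9.04%), close to the 9.18% of all merged regions. The most remote lay at chr14:82084191-82084769, 2061 kb from Olfm4, a gene of a secreted glycoprotein. There the fold was 6.08 and 5.62 in the controls and 6.26 and 7.24 in the knockouts, on 8, 10, 10 and 9 fragments. The next were on chromosomes 2, 18, 1 and 1, at 1805 kb from Acvr2a, 1636 kb from Pik3c3, 1621 kb from Slc39a10 and 1450 kb from Pla2g4a. These genes are named as landmarks only, and the region on chromosome 18 overlapped the long non-coding RNA gene 4930474G06Rik.

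Chromosome X held a larger share of the regions than of other called regions. It carried 67 of 520 (12.9%), against 7.03% of all merged regions, 9.87% of those of 3 lists, 7.11% of 2 lists, 6.78% of 1 list and 2.82% of the 71 regions with a fold of 12 or more. On X, 3.30% of all merged regions met the rule, followed by 2.69% on Y, 2.37% on chromosome 6, 2.33% on 3 and 2.12% on 9. The lowest shares were 1.14% on chromosome 17, 1.20% on 11 and 1.21% on 16. Arrays described below carried part of this: 15 of the 41 regions on chromosome 6, 7 of 26 on 9, 6 of 9 on Y and 5 of 67 on X. Without the loci of 3 or more regions the share was 1.54% on chromosome 6, 1.55% on 9, 0.923% on Y, 2.16% on 3 and 3.07% on X, against 1.65% over all chromosomes. Without these loci the share on X thus stayed above that over all chromosomes, while those on 6, 9 and Y were below it. On 6 and Y the lower share fell outside the 95% exact binomial interval of the full share. On 9 it stayed inside that interval (1.39 to 3.08%). The intervals count regions as if they were independent, and these differences were not tested. The share on X thus rose with the number of lists that called a region up to the moderate 4-list regions, and was low among the strongest. The labels do not give the sex of the animals.

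**Figure D3:**
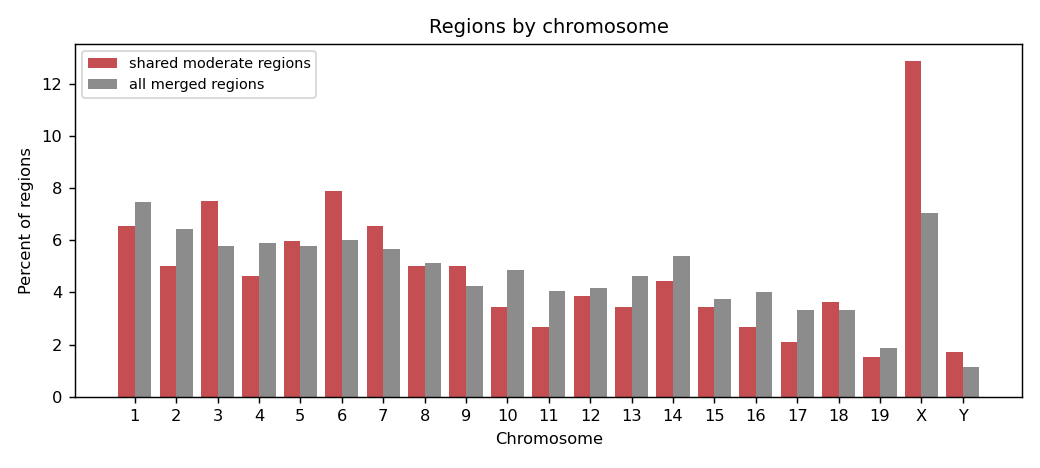
Percent of the 520 shared moderate regions (red) and of all 28843 merged regions (grey) that lie on each chromosome. Chromosome X holds 12.9% of the former and 7.03% of the latter, the widest gap of any chromosome; the bar of chromosome 6 includes 15 regions of 1 array.

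In all, 137 of 21887 protein-coding genes (0.626%) had one of the regions within 5 kb, and 120 had one inside. The 120 genes were long, with a median of 203 kb (range 2.19 to 2390) against 17.2 kb over all protein-coding genes, and 35 of them were 500 kb or longer, of 227 such genes in the annotation. A longer gene offers more room for a region, and no correction for length was made. By nearest gene, 8 regions lay next to olfactory receptor genes (Olfr), 3 next to vomeronasal receptor genes (Vmn), 4 next to zinc finger genes (Zfp) and 65 next to predicted genes with a Gm name. These counts were not set against all merged regions and say nothing of an excess. Long non-coding RNA genes were overlapped by 30 regions (5.77%), against 7.50% of all merged regions and 6.05% of those of 3 lists. Ribosomal RNA genes were overlapped by 3 (0.577%), all in the chromosome 8 array described below. The share was 0.101% over all merged regions and 0.745% in regions of 3 lists.

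Of 247 genes in 14 lists of cardiac and other cell-type genes, 7 had a region within 5 kb, and 9 lists had none. The lists with none were cardiac transcription factors (0 of 24), sarcomere (0 of 28), fatty acid oxidation and mitochondria (0 of 23), arginine methylation (0 of 18, Carm1 among them), cell cycle (0 of 20), fetal and stress genes (0 of 10), fibroblast (0 of 12), smooth muscle and pericyte (0 of 9), and macrophage and immune genes (0 of 10). The list of long neuronal genes had 3 of 30, and calcium handling (1 of 16), ion channels and gap junctions (1 of 15), intercalated disc and costamere (1 of 20) and endothelial genes (1 of 12) had 1 each. Against 0.626% of all protein-coding genes, lists of 9 to 30 genes would hold few regions in any case, and the counts are a description. With 0 or 1 gene near a region in each list of heart cell genes, those of cardiomyocytes included, the regions give no check of the sorted cell type.

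Among heart genes, the region in Itpr1, the inositol trisphosphate receptor that releases calcium from internal stores, lay at chr6:108271972-108273020. Its fold was 5.66 and 7.09 in controls 1 and 2, and 6.22 and 8.35 in knockouts 1 and 2. In Kcnd2, the Kv4.2 channel subunit of the transient outward potassium current, the fold at chr6:21394103-21395077 was 6.40, 6.09, 5.42 and 7.28. Both sets of folds chose their region and were not compared between groups. In Dmd, the gene of dystrophin, which ties the cytoskeleton to the cell membrane, the fold at chrX:83894525-83895171 was 8.17 and 8.84 in the controls and 4.35 and 5.91 in the knockouts, on 12, 12, 8 and 8 fragments. These values chose the region, rest on few fragments and were not compared between groups.

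Erg, a transcription factor of endothelial cells, held a region of 1803 bp at chr16:95509192-95510994. The highest peaks of the lists had folds of 6.33, 6.64, 6.70 and 7.71 in the same order, with summits spread over 1031 bp. The region held 6 peaks, and the lowest had a fold of 5.76. The 3 neuronal genes were Nrg3, a ligand of the ErbB4 receptor, Lrp1b, of the low-density lipoprotein receptor family, and Ctnnd2, a catenin of cell junctions. Nrg3 had folds of 7.19, 6.62, 5.69 and 6.11 at chr14:38542224-38543185. Lrp1b had 4.92, 8.16, 5.60 and 4.60 at chr2:42214249-42214785, where control 2 alone was high. Ctnnd2 had 6.62, 6.12, 4.63 and 4.68 at chr15:30753391-30754775.

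The regions in or near genes whose lowest fold was highest were led by Tenm4, a teneurin of neural and other cell contacts, with 7.89, 7.48, 7.19 and 9.51 at chr7:96197317-96198405. Smad4, the common mediator of TGF-beta and BMP signalling, followed with 7.17, 8.84, 8.01 and 7.73 at chr18:73691464-73692417. At Tenm4 the 4 summits held 10, 10, 11 and 13 fragments, and at Smad4 9, 12, 12 and 10, so even these were low peaks. Other genes of the first 15 were Sox6, Rsph3a, Sntg1, Gabra3, Gpc5, Galntl6, Cadps2, Wdr37, Csmd2 and Lcorl, with the region inside, and Gm21119, Gm52796 and Tmprss2, with the region 0.963 to 2.045 kb away. Over the 15, the lowest fold of a region was between 6.22 and 7.19. Gabra3, a subunit of the GABA-A receptor, ran from 11.1 in control 1 to 6.58 in knockout 2, whereas Sntg1, a syntrophin, kept to 6.76, 6.80, 6.74 and 7.47.

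Several genes held more than 1 of the regions. Galntl6, of the family of polypeptide N-acetylgalactosaminyltransferases, held 3, and Sox6, Spag16, Csmd2, Cadps2, Nell1, Aff2, F8 and the predicted gene Gm40363 held 2 each. In Galntl6 the folds were 6.49, 7.21, 7.22 and 7.70 at chr8:58095485-58096602, 7.89, 4.76, 5.00 and 4.85 at chr8:58164388-58165083, and 4.77, 4.22, 4.97 and 6.91 at chr8:58388738-58389534. All 3 lay in the span of the gene, and knockout 2 had the highest value at 2 of them. Sox6, a transcription factor of muscle fibre type and red cell development, had folds of 7.08, 8.98, 8.08 and 7.11 at chr7:115588968-115589841. At its other region, chr7:115817598-115818909, they were 9.32, 8.69, 5.82 and 5.83. These folds chose the regions and were not compared between groups.

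The regions in F8, the gene of coagulation factor VIII, were 102 kb apart, with folds of 6.45, 6.55, 6.51 and 5.73 at chrX:75199973-75201377 and 5.88, 6.62, 6.88 and 7.03 at chrX:75303274-75304071. At the former the 4 summits lay within 36 bp. Those in Cadps2, a priming factor of dense-core vesicles, were 30.2 kb apart, in Aff2 62.0 kb, in Csmd2 82.9 kb, in Spag16 269 kb and in Nell1 380 kb. Outside the chromosome 6 array described below, regions of the same gene were thus 30.2 kb or more apart.

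Of the 5 regions within 1 kb of a gene end, 3 were in or beside predicted genes of the chromosome 6 array (Gm40367, Gm40365 and Gm40364). The others lay 0.963 kb from Tmprss2, a membrane serine protease, and 0.878 kb from Wls, which carries Wnt proteins to the cell surface. The Wls region at chr3:159939413-159939676 was only 264 bp wide, its 4 summits lay within 18 bp and its folds were 11.4, 7.28, 5.88 and 9.73. It was narrower than most, and its summits were as close as the median of 23 bp in regions with a fold of 12 or more.

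At the limits of the rule, the regions just inside the upper limit were chr14:55166497-55167376, 50 kb from the junctophilin gene Jph4, with 11.9, 8.19, 11.6 and 4.51, and chr8:20701229-20706962, with 9.39, 7.69 and 9.83, and just under 12 in knockout 2. Just outside it were chr3:12468875-12469819, with a highest fold of 12.1, and chr19:24917375-24919391 beside Cbwd1, with 12.2. Just inside the lower limit were chr6:29747918-29748919 in Smo, the signal transducer of the Hedgehog pathway, with 3.53, 3.84, 4.14 and 4.56, and chrY:90779344-90780136 with 5.76, 4.93, 3.54 and 4.05. The Smo region rested on 147 to 198 fragments per library over a high background, unlike most. Just outside were chr9:35305243-35305582, with a lowest fold of 3.45, and chr6:47677224-47678803, in the chromosome 6 array, with 3.47.

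The regions were mostly far from each other. With a limit of 100 kb they formed 463 loci, of which 438 held 1 region, 18 held 2 and 7 held 3 or more. Another of the regions lay within 100 kb of 82 (15.8%, 95% exact binomial interval 12.7 to 19.2%), and the median gap to the nearest was 1333 kb. This interval, too, counts regions as if they were independent, which they are not. Another of their own class lay within 100 kb of 15.3% of the 1074 regions of 3 lists, 35.6% of the 3068 of 2 lists and 84.4% of the 24099 of 1 list. For the 71 regions of 4 lists with a fold of 12 or more it was 16.9%. The classes differ in number, and a larger class has more regions that can lie near, so these shares are not directly comparable. The closest pairs were 81 bp apart on chromosome 1, 118 bp on 8, 196 bp on 10 and 198 bp on 2. The other 6 of the 10 closest pairs, 297 to 459 bp apart, were on chromosomes 6, 9, 19 and Y.

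Close around the regions, other merged regions were frequent up to about 6.5 kb and then became scarcer, as they did around regions of 3 lists. Another merged region had its middle 1 to 7 kb away in 321 of 520 (61.7%). The share was 58.3% for regions of 3 lists, 57.4% for 2 lists, 39.8% for 1 list and 42.7% over all merged regions. This window was chosen after the distances had been seen. For the 438 regions with no other of the 520 within 100 kb it was 245 (55.9%), and for the 910 regions of 3 lists with no other of 3 lists within 100 kb it was 54.7%. Having a neighbour at this distance was therefore about as frequent around 3-list regions.

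Around the 438 there were 40.9 neighbours per 100 regions at 1 to 4 kb, 48.2 at 4 to 7 kb, 5.94 at 7 to 10 kb and 7.53 at 10 to 13 kb. Around the 910 regions of 3 lists there were 52.4, 39.2, 7.58 and 8.57. In bins of 0.5 kb the number fell from 11.6 at 6 to 6.5 kb to 5.48 at 6.5 to 7 kb and 1.37 at 7 to 7.5 kb around the 438, and from 7.69 to 2.20 and 1.65 around the 910. The drop lay at the same distance in both, and the difference between them was not tested.

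**Figure D4:**
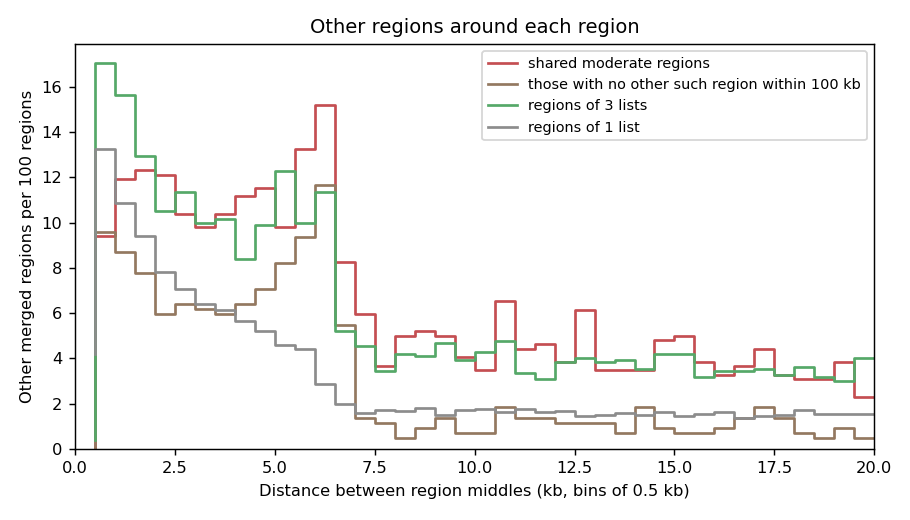
Number of other merged regions per 100 regions (vertical axis) by the distance between middles in kb (horizontal axis, bins of 0.5 kb), for the 520 shared moderate regions (red), the 438 of them with no other such region within 100 kb (brown), regions of 3 lists (green) and regions of 1 list (grey). The red and brown lines have their highest bin at 6 to 6.5 kb, at 15.2 and 11.6, and fall to 5.96 and 1.37 at 7 to 7.5 kb; the green line falls over the same bins, from 11.4 to 4.56.

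Around the isolated regions, the neighbours mostly stood on one side. A single neighbour can only be on one side, so regions with 2 or more neighbours 1 to 7 kb away were counted. Over all 520 regions, all neighbours were on the same side in 97 of 150 (64.7%), against 3490 of 5933 (58.8%) over all merged regions and 186 of 314 (59.2%) in regions of 3 lists. Among the 438 isolated regions it was 85 of 93 (91.4%). Isolated regions of 3 lists had 159 of 223 (71.3%) and isolated regions of 2 lists 259 of 380 (68.2%), each isolated from its own class. Isolation removes some neighbours by definition, and differently in each class, so these shares are a description and were not tested. Of the 245 isolated regions with any neighbour at this distance, 115 had it only towards lower coordinates, 122 only towards higher coordinates and 8 on both sides. Strand is not recorded in the lists.

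Of the 390 merged regions counted 1 to 7 kb from an isolated one, 334 were called in 1 list, 45 in 2, 10 in 3 and 1 in 4. The share of 1 list, 85.6%, was close to the 83.6% of all merged regions. Counted by library, 35.4% and 22.4% of the isolated regions had a neighbouring peak of control 1 and control 2 at that distance, and 10.3% and 18.9% one of knockout 1 and knockout 2. At 7 to 13 kb, a window of the same length, it was 5.71%, 2.74%, 2.51% and 3.42%. Peaks outside the regions had another peak of their list 1 to 7 kb away in 32.0%, 18.8%, 13.7% and 23.3%, and 7 to 13 kb away in 7.95%, 5.83%, 5.28% and 5.51%. The nearer window was thus the fuller in each of the 4 libraries for both kinds of peak. Compared with other peaks, the isolated regions had the higher share with a near neighbour in both control lists and the lower in both knockout lists. The sets are unlike. Isolated regions were measured from the middle of the merged region, so that a peak of the region itself can count. Other peaks were measured from their own middle and were not chosen for isolation. The difference was not tested, and the lists differ in length.

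The 7 loci of 3 or more held 46 regions, in arrays on chromosomes 3, 6, 8, 9, X and Y. The largest, of 15 regions over 118 kb at chr6:47655152-47773186, began beside Rn4.5s, a gene annotated as ribosomal RNA, and overlapped a row of predicted genes from Gm40369 to Gm40363. The median distance from the start of one region to that of the next was 4.26 kb. The median fold was 6.07 and 4.60 in the controls and 4.94 and 5.91 in the knockouts, over median backgrounds of 2.96, 3.49, 4.81 and 2.91 fragments. These backgrounds were several times those of the median region. The 15 stood in separate blocks, with a gap from position 47686943 to 47748676.

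The start windows of Gm40369, Gm40367, Gm36327 and Gm40364 in this array were identical over all 300 bases. Successive windows were 8.60, 12.99 and 4.325 kb apart, and each lay in a region of 3 lists, outside the rule. The sequence is shown because it recurs whole along the array; it is that of chr6:47653742-47654041 on the plus strand, without capitals.
Gm40369: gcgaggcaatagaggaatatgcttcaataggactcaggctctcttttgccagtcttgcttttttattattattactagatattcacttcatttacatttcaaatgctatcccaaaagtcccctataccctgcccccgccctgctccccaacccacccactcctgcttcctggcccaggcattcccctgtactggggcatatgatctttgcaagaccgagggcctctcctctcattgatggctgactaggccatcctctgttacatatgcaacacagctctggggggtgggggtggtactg

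Reads from identical copies cannot be assigned to one of them by sequence, and their treatment is not given in the sources used here. A like limit holds for the other arrays where copies are alike, and their folds are printed with it. The part of mapping in these values was not tested.

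At chr9:3000062-3038261, 7 regions covered most of 38.2 kb with no annotated gene, and the widest of all regions, 11335 bp, was among them. Its folds were 5.93, 5.17, 4.95 and 6.68, and its 4 summits fell on the same base. Over the array the median fold was 6.80, 5.90, 6.18 and 8.00. Fragment numbers could not be recovered there. The array at chr8:123539077-123609096 held 6 regions over 70.0 kb among the 5S ribosomal RNA genes, of which 3 overlapped n-R5s110, Gm26391 and n-R5s141. Its median folds were 5.99, 6.15, 5.32 and 7.60, over backgrounds of 0.734, 0.882, 1.12 and 0.732 fragments.

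On the sex chromosomes, 6 regions lay within 17.6 kb at chrY:90774049-90791664 and 5 within 20.9 kb at chrX:169996175-170017061, of which 1 overlapped Erdr1. The median folds were 6.10, 4.73, 3.95 and 4.84 on Y and 5.72, 6.20, 4.48 and 5.12 on X. Whether these arrays on Y and X are alike in sequence was not tested, so neither is taken as signal of its own chromosome alone. A further array of 4 regions over 60.3 kb at chr8:20646663-20706962, beside Gm21119 and Gm46074, had the highest median folds of the 7, at 10.1, 7.93, 7.80 and 10.4. The smallest held 3 regions over 10 kb at chr3:6297480-6307513, with 9.89, 5.72, 5.55 and 6.46. Counting each locus once left 463 of the 520 regions and a share of 25.7% in protein-coding genes, close to the 24.6% of all.

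**Figure D5:**
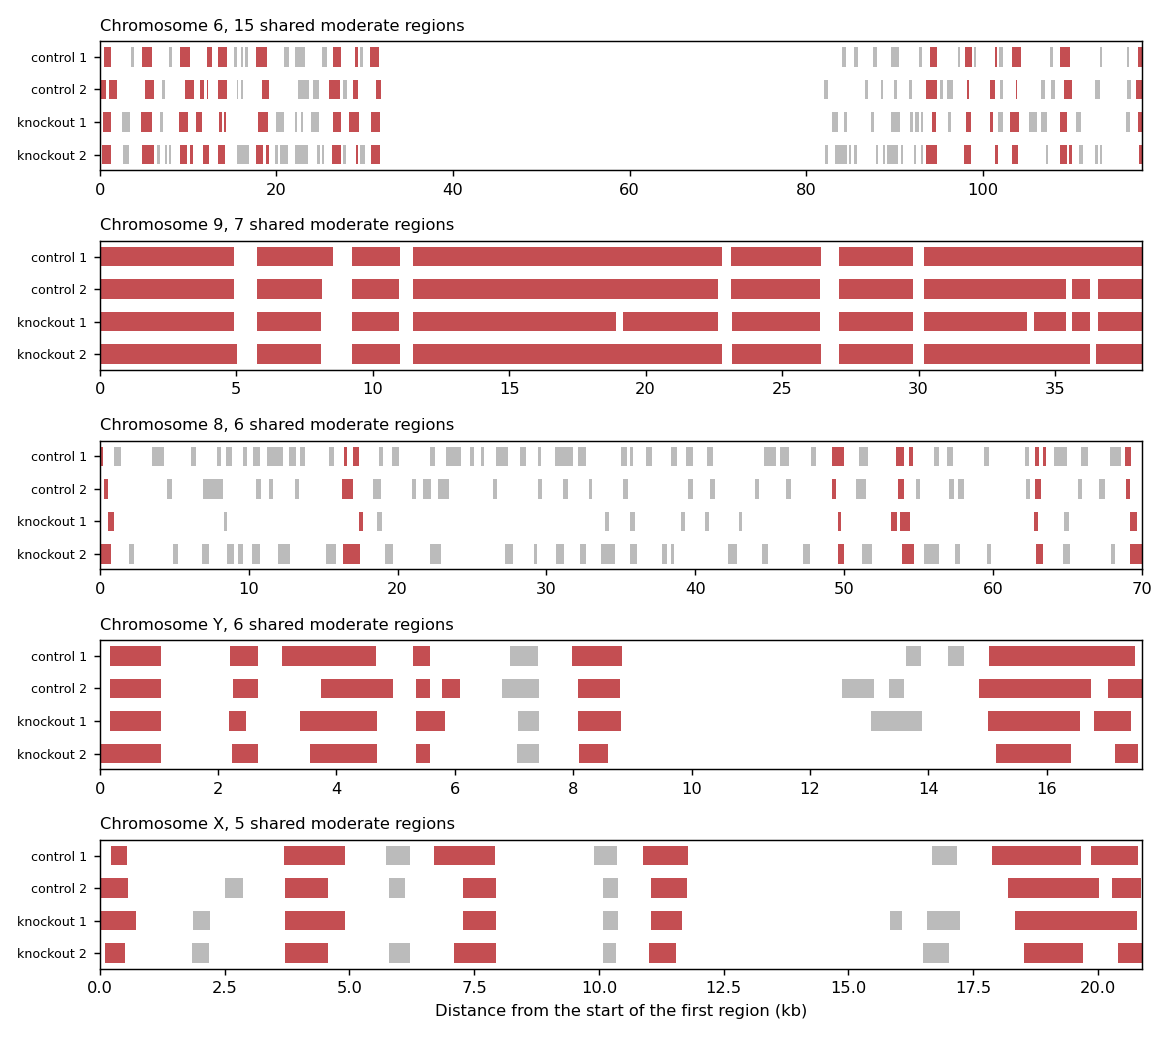
Peaks of each library (rows) along the 5 arrays of 5 or more shared moderate regions, by distance in kb from the start of the first region; red bars are peaks inside the regions and grey bars other peaks of the list. On chromosome 9 peaks cover most of the array in all 4 libraries, while on chromosome 6 the 15 regions stand in blocks at each end of the 118 kb.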

How the data were processed

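H3R17me2a ChIP-seq of sorted cardiomyocyte nuclei gave 1 peak list per ChIP library (2 control, 2 knockout), and the 4 input libraries were not analysed here. Per the submitters' processing notes, Bowtie2, MACS2 and DiffBind were among the tools and mm10 was the build; their parameters: not given in the sources used here. Fold enrichment, as deposited, is a ratio: summit fragments plus 1, divided by local background plus 1, and the deposited −log10 p and −log10 q give its significance, per the layout of the lists. The authors' peak starts, ends and summits were used as deposited. Total reads are not in the lists. The number of fragments at a summit was solved from fold and p with a tolerance of 0.01. It describes called peaks and does not measure the depth of a library. The lowest background of the peaks in the regions was 0.395 and 0.470 fragments in controls 1 and 2, and 0.608 and 0.367 in knockouts 1 and 2.

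Merging joined peaks of chromosomes 1 to 19, X and Y that overlapped by 1 bp. Where a list had several peaks in a region, all had to meet the fold limits. The folds, fragments and summits printed for a single region are those of the highest peak of each list. Distances to genes used spans from RefSeq GRCm38.p6, the assembly of mm10, without exons, from the middle of a region. Gene starts for the promoter windows came from the same source. Library values were compared with exact permutation tests. The scripts were tested on simulated regions. Python 3.11.15, NumPy 2.4.6, SciPy 1.17.1 and pandas 2.3.3 were used.

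The regions, gene lists and windows were chosen with earlier results of these data known. Regions were named by the 15 highest lowest folds within 5 kb of a protein-coding gene, list genes, genes with 2 or more regions, gene ends within 1 kb, the 5 widest and 5 tightest, the 10 closest pairs, groups of 3 or more, the 2 nearest each limit on either side, and the 5 farthest from genes. Alternatives were stricter peaks, reciprocal overlap, other limits, libraries left out, a replicate block and other gene and distance definitions. Keeping 1 region per locus, peaks of 250 bp or wider, chromosome shares without loci of 3 or more regions and a crossed block were added after the data were seen. A comparison with all bases of the chromosomes was planned and not made, since lengths were not given.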

Additional observations from a re-analysis of the deposited data

How the results depend on the processing

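The number of regions depended most on which peaks count as shared. It fell from 520 to 127 with peaks of −log10 q of 5 or more and to 133 with 50% reciprocal overlap, and was 656 to 871 with each library left out, when a region needed a peak in the other 3 lists (656 without control 1, 823 without control 2, 871 without knockout 1, 717 without knockout 2). Fold limits of 10, 15, 3 or 4, autosomes alone, the highest peak per list, 1 region per locus and peaks of 250 bp or wider gave 375 to 544. The knockout minus control difference in log2 width ranged from -0.11 to 0.07 with each library left out, being 0.066 without control 1 and 0.026 without knockout 1, and was -0.09 to -0.04 otherwise. With a replicate block it was -0.038 (exact sign-flip permutation p = 1, smallest possible 0.5). The labels do not say that equal numbers share an animal or day, and deviations of same-numbered libraries correlated at -0.10 over the regions, so the crossed pairing was tried and gave -0.038 (exact permutation p = 0.5). Summit distance within minus between groups was 21.2 bp with −log10 q of 5 or more and 1.22 bp with mean distances, where the median had given -0.375 bp; with each library left out it was -15.8 to -1.5 bp. The cause of these reversals was not tested. The share in genes was 29.6% with all annotated genes and 22.0% to 28.1% otherwise. The share with another region within 100 kb was 22.8% with −log10 q of 5 or more and 19.5% with reciprocal overlap; within 10 kb it was 10.8% and within 1 Mb 44.8%. With about 10 fragments per summit, these lists cannot tell a region missed in 1 library from one absent there.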
